A study of Rattus norvegicus with 22 samples.

Results

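The calpains and apoptotic caspases are described here through 7 genes listed by name, with earlier results of these data known. They are the calpain subunit genes Capn1, Capn2 and Capns1, the calpain inhibitor gene Cast, and the caspase genes Casp6, Casp8 and Casp9. All 7 were found among the 17172 genes of the count table, and all 7 had enough counts to be tested with the 12875 genes tested in all. RNA was sequenced from the ipsilateral (right) hippocampus of adult male Sprague-Dawley rats after lateral fluid percussion, a pressure pulse of fluid delivered onto the closed dura through a craniectomy, which models moderate traumatic brain injury (TBI). The 4 groups were sham day 1 (n = 2 rats), TBI day 1 (n = 4), sham day 14 (n = 4) and TBI day 14 (n = 4). Every rat, sham included, had the anesthesia, craniectomy and injury hub, and sham rats lacked only the pressure pulse, so TBI against sham at the same day measured the pulse on top of surgery. Each library came from the whole hippocampus of 1 rat, in which fewer cells of a type and less RNA per cell cannot be told apart.

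Calpains are calcium-activated cysteine proteases of the cytosol that cut their substrates at a few sites rather than degrading them. The conventional calpains pair a catalytic subunit, encoded by Capn1 (calpain 1, active at low calcium) or Capn2 (calpain 2, active at higher calcium), with the shared small regulatory subunit encoded by Capns1, and calpastatin, encoded by Cast, is their dedicated protein inhibitor. After brain injury, calcium entering neurons activates calpain, and spectrin breakdown fragments are a classic readout of that activity. Caspases are cysteine proteases that cut after aspartate. Caspase-9 initiates the mitochondrial pathway on the Apaf1 apoptosome, caspase-8 initiates the death receptor pathway, and caspase-6 is an effector caspase that cuts lamin A and has been linked to axon degeneration. These proteases are regulated largely after translation, and the counts measure mRNA, not protein or activity.

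Total counts ranged from 15065540 to 23743703 per library. Levels are given as log2 CPM, the logarithm of counts scaled to a common library size, which allow a gene to be compared between rats but not with another gene, since the counts were not divided by gene length. In choroid plexus markers, 3 libraries stood apart, sham day 1 replicate 1 and TBI day 14 replicates 2 and 3. The 13 markers summed to 9047 CPM in sham day 1 replicate 1 and to 10.9 in replicate 2, while the TBI rats of day 1 reached 22.6 to 33.8, the day 14 sham rats 20.1 to 26.3, and the 4 day 14 TBI rats 28.1, 1577, 7755 and 22.2. Of these 13 markers, Otx2 was at 0 in every library, and 10 of the 12 tested were called lower at day 1. Summed neuron markers were at 9189 to 11363 CPM in sham rats and 3411 to 7325 in injured rats of day 1, with 5 of 10 called lower. By day 14 they were at 7591 to 9741 in sham rats and 6374 to 7921 in injured rats, with none called by edgeR. Microglia and macrophage markers spanned 509 to 825 CPM in sham rats and 1090 to 1362 in injured rats at day 1 (7 of 14 called higher and 2 lower), and spanned 602 to 772 in sham rats and 1410 to 2529 in injured rats at day 14 (13 called higher). Markers of infiltrating myeloid cells spanned 5.98 to 11.6 CPM in sham rats and 35.3 to 92.8 in injured rats at day 1 (6 of the 7 tested called higher), and spanned 6.47 to 8.96 in sham rats and 17.4 to 28.7 in injured rats at day 14 (1 called higher). Summed astrocyte markers were at 6743 to 10751 CPM in sham rats and 13635 to 20004 in injured rats at day 1 (1 of 9 called higher and 1 lower). At day 14 they were at 5841 to 7211 against 9496 to 13751 (1 called higher). A sum gives most weight to the most abundant markers. As a mean of centered log2 CPM, which weighs each marker equally, the groups overlapped at both days. That mean was 0.46 and -0.16 in sham against -0.0046 to 0.39 in TBI at day 1. At day 14 it was -0.40 to -0.068 against -0.13 to 0.28. Oligodendrocyte markers were at 11213 to 15230 against 4495 to 16016 CPM at day 1 (2 of 10 called lower) and 15363 to 24481 against 11103 to 19724 at day 14, and endothelial markers at 234 to 434 against 363 to 553 (1 of 9 called higher) and 298 to 433 against 262 to 369, which overlapped. Over all tested genes, 11.2% were called higher and 7.93% lower at day 1, and 4.07% and 0.365% at day 14. The part of these cells in the results below was not tested.

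At day 1, 2 of the 7 genes rose with TBI, Capn2 (1.90-fold) and Cast (1.41-fold), and no member fell. A gene is called when its adjusted p-value is under 0.05 by edgeR's quasi-likelihood test with Benjamini-Hochberg adjustment over all tested genes, and 19.1% of all tested genes were called at day 1 (11.2% higher and 7.93% lower). With an unadjusted p-value under 0.05, 4 of the 7 genes were higher and none lower. At that threshold, 4429 of the 12875 tested genes passed in either direction at day 1. At day 14, none of the 7 genes was called by edgeR, limma-voom or DESeq2, against 4.43% of all tested genes (4.07% higher and 0.365% lower). An unadjusted p-value under 0.05 was found for 1 of the 7, Casp8, and for 1713 of the 12875 tested genes. The median log2 fold change of the 7 genes was 0.50 at day 1 and -0.0066 at day 14, beside -0.015 and -0.031 over all tested genes.

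**Figure D1:**
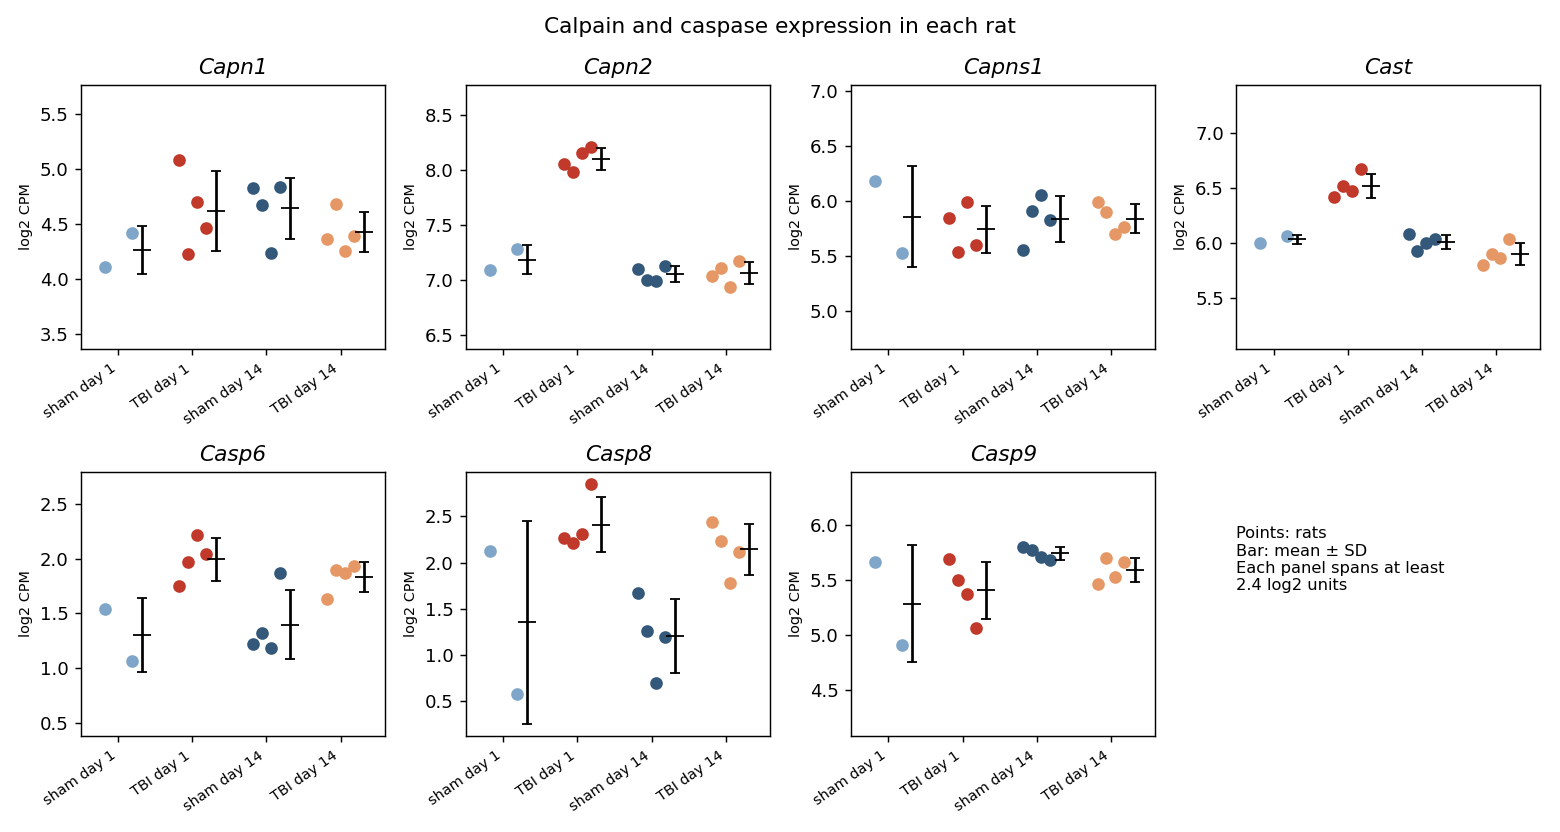
Expression (log2 CPM, y axis) of the 7 genes in each of the 14 rats, by group (x axis), with the mean ± SD of each group beside its points. The 4 TBI day 1 rats lie above all other rats for Capn2 and Cast, an order not counted over all tested genes. Casp8 in sham day 1 is spread from 0.58 to 2.13.

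Capn2, the catalytic subunit of calpain 2, showed the clearest change. The 250 bases before its annotated start are shown because this is the member that the results turn on. They lie at chr13:96732626-96732875 on the minus strand of GRCr8, as given by RefSeq, whose promoter table held 5 of the 7 genes. That build is newer than rn5, on which the reads were counted. Capitals mark the single match to CCAAT on either strand, which begins at position -209 from the start; CCAAT occurs in 34.0% of the 33469 windows of this length.
Capn2: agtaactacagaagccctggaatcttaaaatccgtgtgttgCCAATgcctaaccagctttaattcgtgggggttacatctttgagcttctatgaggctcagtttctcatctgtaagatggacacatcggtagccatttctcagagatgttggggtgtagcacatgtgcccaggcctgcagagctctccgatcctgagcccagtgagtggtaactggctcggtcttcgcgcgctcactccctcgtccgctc
The GC content of the window was 52.0%, beside a median of 51.2% over all windows, and it held 10 CpG dinucleotides beside a median of 5. The letters GGGCGG (the GC box, in 30.5% of windows), TGANTCA (the AP-1 site, in 6.34%), TGACGTCA (the cAMP response element, in 1.59%) and TATAAA (the TATA box, in 12.9%) were not found in it on either strand, and none of the 5 motifs overlapped another.

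Capn2 stood at 7.09 and 7.28 log2 CPM in the sham day 1 rats and at 8.05, 7.98, 8.15 and 8.21 in the TBI day 1 rats. In counts, this was 2517 and 3351 reads in sham and 5123 to 6640 in TBI. The groups did not overlap, as for 30.8% of all tested genes at day 1. The gap between the highest sham and the lowest TBI rat was wider than the spread within either group. The log2 fold change was 0.92 (SE 0.13, 95% interval 0.66 to 1.19, adjusted p = 0.000184 by edgeR), which placed Capn2 at rank 182 by p-value among all tested genes.

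At day 14 Capn2 was back at the level of sham. Its values were 7.09, 6.99, 6.99 and 7.13 log2 CPM in sham day 14 and 7.03, 7.10, 6.93 and 7.17 in TBI day 14. The ranges overlapped, and the log2 fold change was 0.0080 (SE 0.099, 95% interval -0.20 to 0.22, adjusted p = 0.990 by edgeR). The injury effect on Capn2 differed between the days by 0.92 (SE 0.16, adjusted p = 0.00712 by edgeR), a difference called for 2 of the 7 genes, both in this direction, and for 3.68% of all tested genes (2.24% in this direction and 1.44% in the other). This call missed the threshold with the choroid plexus score of each rat as a covariate (0.80, adjusted p = 0.0552) and without the 3 rats with the highest score (0.75, adjusted p = 0.0905).

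Cast, which encodes the inhibitor of both conventional calpains, moved in the same direction as Capn2 by a smaller amount. It stood at 6.00 and 6.06 log2 CPM in sham day 1 and at 6.42, 6.51, 6.47 and 6.67 in TBI day 1. Again all TBI rats lay above both sham rats. The log2 fold change was 0.50 (SE 0.12, 95% interval 0.25 to 0.76, adjusted p = 0.00970 by edgeR).

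The day 1 call for Cast was lost without sham day 1 replicate 2 (0.53, adjusted p = 0.0589), without the 3 rats with the highest choroid plexus score (0.46, adjusted p = 0.0825) and in a fit of only the 6 rats of day 1 (0.53, adjusted p = 0.145). At day 14 the values were 6.07, 5.92, 6.00 and 6.03 in sham and 5.80, 5.90, 5.86 and 6.03 in TBI, which overlapped. The change was -0.11 (SE 0.096, 95% interval -0.31 to 0.095, adjusted p = 0.765 by edgeR). The difference between the days was 0.61 (SE 0.15, adjusted p = 0.0393 by edgeR), a call lost in 15 of the 22 other settings tried. Of the 14 fits without 1 rat, it held in those without TBI day 1 replicates 1, 3 or 4 or TBI day 14 replicate 4, with values of 0.56 to 0.66 over the 14.

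**Figure D2:**
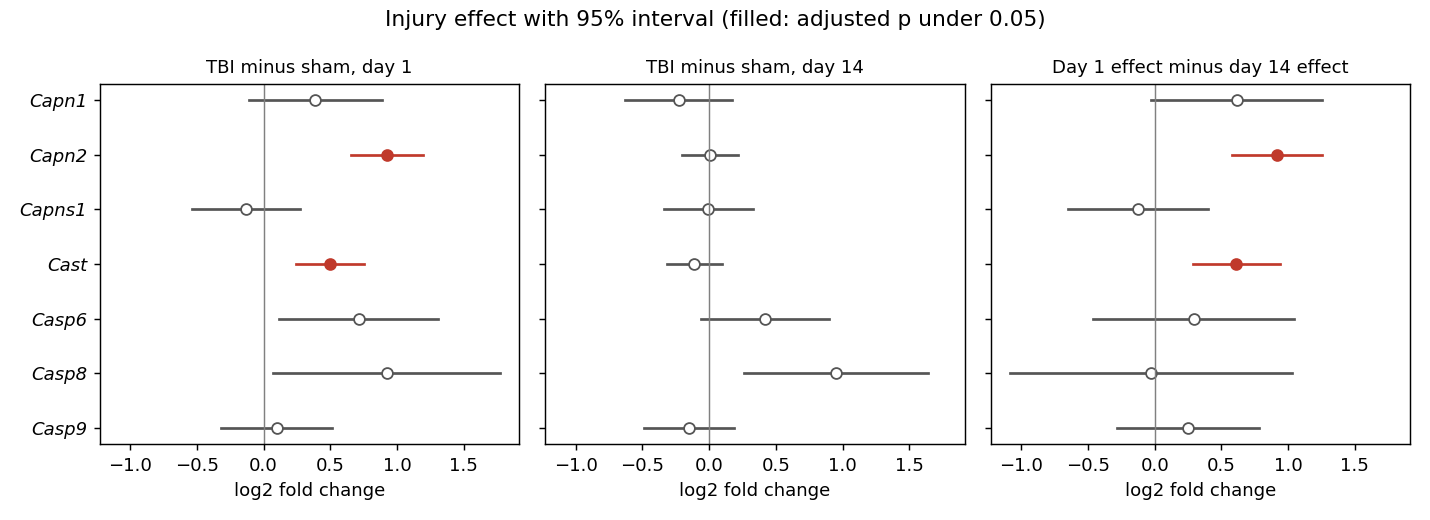
Log2 fold change (x axis) of each gene (y axis) with its 95% interval for TBI against sham at day 1, at day 14, and for the difference between these effects. Filled points have an adjusted p-value under 0.05: Capn2 and Cast at day 1 and for the difference between days.

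Since protease and inhibitor mRNA both rose, Capn2 was also compared with Cast and with Capns1 inside each rat, as the difference of the log2 CPM values relative to its mean over the 14 rats. These ratios were chosen after the values were known. For Capn2 against Cast, the sham rats averaged -0.093 ± 0.092 at day 1 (SD, n = 2) and -0.20 ± 0.047 at day 14 (SD, n = 4), and the TBI rats 0.33 ± 0.096 at day 1 (SD, n = 4) and -0.085 ± 0.072 at day 14 (SD, n = 4). The lowest TBI day 1 rat, at 0.22, lay above the highest rat of any other group, at -0.014. TBI exceeded sham by 0.43 at day 1, with a two-sided exact permutation p of 0.0667, the smallest that 15 arrangements allow, and by 0.12 at day 14 (exact permutation p = 0.0571).

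For Capn2 against the small subunit gene Capns1, the day 1 means were -0.23 ± 0.59 with sham surgery (SD, n = 2) and 0.80 ± 0.21 with injury (SD, n = 4), a difference of 1.03 (exact permutation p = 0.0667). At day 14 that difference was 0.0063 (exact permutation p = 0.971). None of the ratios, those of Capn1 to Cast and of Capn2 to Capn1 included, had an exact permutation p under 0.05 at either day. Over the 8 comparisons of ratios, the lowest adjusted p was 0.178, and a design of 2 against 4 rats cannot reach 0.05.

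**Figure D3:**
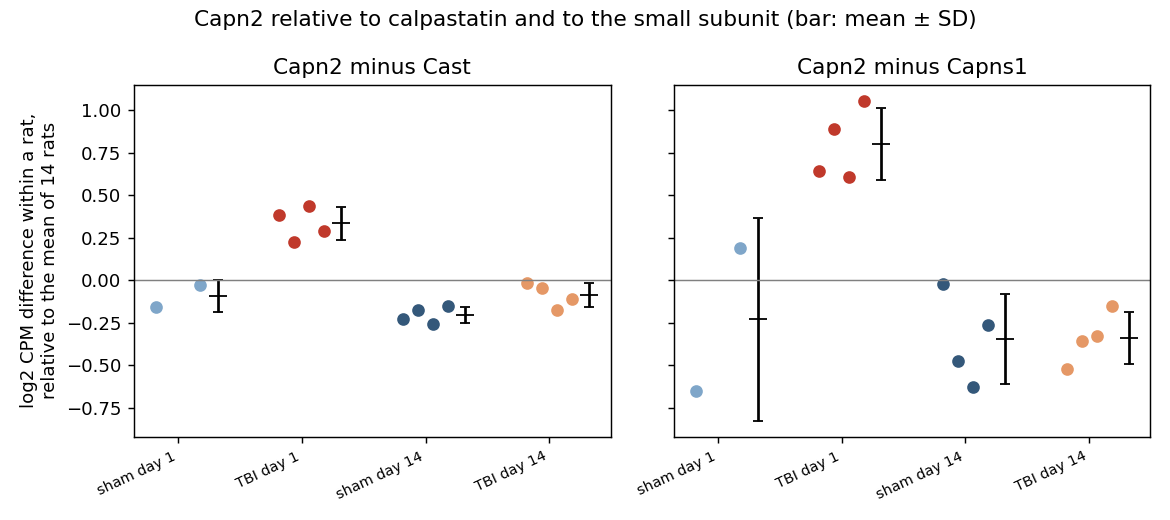
Difference between the log2 CPM of Capn2 and of Cast (left) or Capns1 (right) within each rat, relative to the mean of the 14 rats (y axis), by group (x axis), with mean ± SD. The 4 TBI day 1 rats lie highest in both panels, from 0.22 for Cast and from 0.61 for Capns1.

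The other catalytic subunit gene, Capn1, was not called at either day. At day 1 it stood at 4.11 and 4.42 log2 CPM in sham and at 5.08, 4.22, 4.70 and 4.46 in TBI, so that 1 TBI rat lay inside the range of sham. The log2 fold change was 0.39 (SE 0.23, 95% interval -0.11 to 0.89, adjusted p = 0.258 by edgeR). At day 14 sham rats spanned 4.23 to 4.83 and TBI rats 4.26 to 4.68, with a log2 fold change of -0.23 (95% interval -0.63 to 0.17, adjusted p = 0.745 by edgeR). The intervals of Capn1 and Capn2 at day 1 overlapped, which is not a test of their difference. Their within-rat ratio at day 1 differed by 0.56 between TBI and sham (exact permutation p = 0.200). The smallest p that its 15 arrangements allow is 0.0667. This test therefore cannot decide whether the responses of these genes differed.

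Capns1, the small subunit that both calpains need, had a log2 fold change of -0.13 at day 1 (95% interval -0.54 to 0.28, adjusted p = 0.664 by edgeR). Its sham day 1 rats stood at 6.18 and 5.53 log2 CPM and its TBI day 1 rats at 5.85, 5.53, 5.99 and 5.60, so the groups overlapped and the sham rats were the farthest apart. Without sham day 1 replicate 1 the sign turned, to 0.23. At day 14 the change was -0.0066 (95% interval -0.34 to 0.33, adjusted p = 0.996 by edgeR), with sham rats from 5.56 to 6.06 and TBI rats from 5.70 to 5.99.

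Of the caspase genes, Casp8, the initiator downstream of death receptors, had the largest fitted changes, and neither was called. Its counts were 79 and 30 in sham day 1 and 91, 112, 106 and 160 in TBI day 1, which corresponds to 2.13 and 0.58 log2 CPM in sham and 2.26, 2.21, 2.31 and 2.85 in TBI. All TBI rats lay above sham, but sham replicate 1 lay just below them and replicate 2 far below. The log2 fold change was 0.92 (SE 0.40, 95% interval 0.073 to 1.77, adjusted p = 0.116 by edgeR).

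The size of the Casp8 change at day 1 turned on which sham rat was kept. It was 1.94 (adjusted p = 0.00919 by edgeR) without replicate 1, the rat with the high choroid plexus markers, and 0.32 (adjusted p = 0.697) without replicate 2. In those fits the single sham day 1 rat is assumed to vary like the other groups. At day 14 Casp8 had 47, 38, 28 and 40 counts in sham and 80, 79, 67 and 80 in TBI, or 1.67, 1.26, 0.70 and 1.19 log2 CPM against 2.44, 2.24, 1.78 and 2.12.

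These day 14 groups did not overlap, which held for 14.9% of all tested genes and for 1 of the 7 genes. The log2 fold change of Casp8 was 0.95 (SE 0.32, 95% interval 0.26 to 1.64, unadjusted p = 0.0103, adjusted p = 0.153 by edgeR). It was called in a fit of only the 8 rats of day 14 (0.99, adjusted p = 0.0216) and in the fits without either sham day 1 rat (both 0.95, adjusted p = 0.0435 without replicate 1 and 0.0410 without replicate 2). Its effect at the 2 days differed by -0.026 (95% interval -1.08 to 1.03, adjusted p = 0.984 by edgeR), an interval that holds differences of more than 2-fold either way. The microglia and macrophage markers given above also rose at day 14, and their part in the Casp8 values was not tested.

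Casp6, the effector caspase that cuts lamin A, had few reads, from 34 to 99 per library. It stood at 1.54 and 1.07 log2 CPM in sham day 1 and at 1.75, 1.97, 2.21 and 2.04 in TBI day 1. The groups did not overlap at day 1, as for Capn2, Cast and Casp8, so this held for 4 of the 7 genes and for 30.8% of all tested genes. The log2 fold change was 0.71 (SE 0.28, 95% interval 0.12 to 1.31, unadjusted p = 0.0222, adjusted p = 0.0855 by edgeR).

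With all 6 sham rats as 1 baseline the day 1 change of Casp6 was 0.64 and was called (adjusted p = 0.0227), and without sham day 1 replicate 2 it was 0.48 (adjusted p = 0.483). At day 14 the sham rats stood at 1.22, 1.33, 1.18 and 1.87 log2 CPM and the TBI rats at 1.63, 1.90, 1.86 and 1.93. A single sham rat, replicate 4, lay within the TBI range. The change was 0.42 (95% interval -0.059 to 0.90, adjusted p = 0.480 by edgeR).

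Casp9, the initiator on the apoptosome, was at 5.66 and 4.91 log2 CPM in sham day 1 and at 5.68, 5.49, 5.37 and 5.06 in TBI day 1. The sham rats were farther apart than any pair of TBI rats. Its log2 fold change was 0.097 (95% interval -0.32 to 0.51, adjusted p = 0.757 by edgeR), with a range of -0.23 without sham day 1 replicate 2 to 0.52 without replicate 1. At day 14 it stood at 5.68 to 5.80 in sham and 5.47 to 5.70 in TBI, a change of -0.15 (95% interval -0.49 to 0.18, adjusted p = 0.814 by edgeR).

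**Figure D4:**
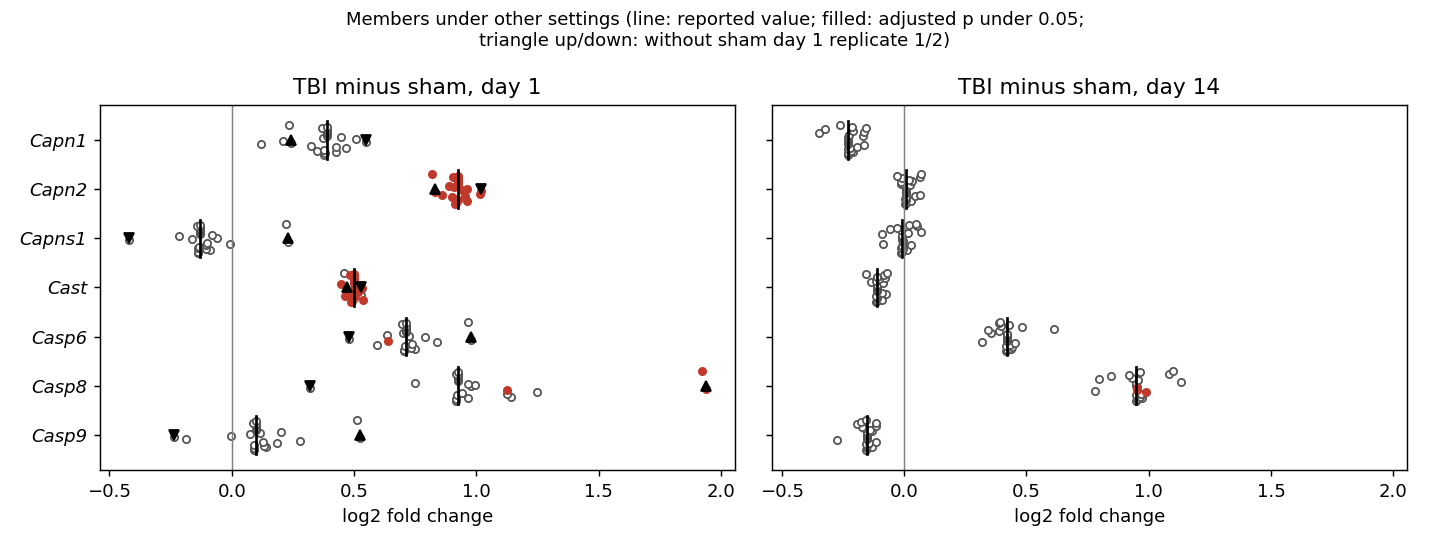
Log2 fold change (x axis) of each gene (y axis) for TBI against sham at day 1 and day 14 under the other settings tried, with the reported value as a vertical line. Filled points have an adjusted p-value under 0.05, and triangles in the day 1 panel, drawn over the points of those fits, mark the fits without sham day 1 replicate 1 (up) or replicate 2 (down), which move Casp8 from 1.94 to 0.32 and Capn2 from 0.83 to 1.02.

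The sham groups of the days were compared as well, since sham rats at day 1 are closer to surgery. None of the 7 genes was called by edgeR, limma-voom or DESeq2 between sham day 1 and sham day 14. By edgeR, 19.1% of all tested genes were called (11.3% higher and 7.88% lower in sham day 1). None of the 7 had an unadjusted p-value under 0.05, against 4471 of the 12875 tested genes. The largest difference was that of Casp9, which was lower by 0.41 on the log2 scale in sham day 1 (95% interval of the log2 fold change -0.83 to 0.0047, adjusted p = 0.148 by edgeR). Its ranges did not overlap, as for 41.5% of all tested genes. It was called without sham day 1 replicate 1 (-0.84, adjusted p = 0.0186) and without the 3 rats with the highest choroid plexus score (-0.83, adjusted p = 0.0407). Against sham day 14, a baseline that this comparison shares with the day 14 contrast, 4 of the 7 genes were higher in TBI day 1, where 46% of all tested genes were called (25% higher and 21% lower). These were Capn2 with a log2 fold change of 1.06 (adjusted p = 1.74e-06 by edgeR), Cast with 0.52 (adjusted p = 0.000536), Casp8 with 1.24 (adjusted p = 0.00595) and Casp6 with 0.60 (adjusted p = 0.0395). For Capn2, Cast and Casp8, 3 of the 7 genes, the groups did not overlap, as for 39.9% of all tested genes. The call for Casp6 was lost in 9 of the 14 fits without 1 rat, those without TBI day 1 replicates 2, 3 or 4, sham day 14 replicates 1, 2 or 3, or TBI day 14 replicates 2, 3 or 4 (0.52 to 0.61 in these). Capn1, Capns1 and Casp9 had log2 fold changes of -0.0036, -0.092 and -0.32 in that comparison and were not called.

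The genes around these proteases were taken from 7 lists written from general knowledge. Of their 73 genes, which include the 7 members, 69 were in the table and 65 were tested. At day 1, 17 rose and 2 fell, or 29.2% of those tested beside 19.1% of all tested genes, and at day 14, 6 rose and none fell, or 9.23% beside 4.43%. The medians were 0.13 and 0.0093. Outside the members, 15 of 58 rose and 2 fell at day 1, or 29.3% beside 19.1% of all tested genes.

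In the calpain list, 2 of the 13 genes tested at day 1 rose, the members Capn2 and Cast. This was 15.4% of the list, below the 19.1% of all tested genes, and the median log2 fold change was 0.012. Capn9, Capn11 and Capn13 had too few reads to test. At day 14, 1 of the 13 was called, or 7.69% beside 4.43% of all tested genes. This was Capn3, a calpain known mainly from skeletal muscle, for which the day 14 sham rats averaged -0.19 ± 0.43 log2 CPM (SD, n = 4) and the injured rats 1.57 ± 0.52 (SD, n = 4). Its log2 fold change was 1.91 (SE 0.40, adjusted p = 0.00998 by edgeR) on 9 to 17 reads in sham and 35 to 72 in TBI, and at day 1 it was -0.34 (adjusted p = 0.649).

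In the caspase list, 4 of 9 tested genes rose at day 1 and none fell, or 44.4% beside 11.2% of all tested genes called higher. All 9 had a log2 fold change above 0, and the median was 0.92. The largest rises were those of Casp4 with 3.07 (adjusted p = 7.9e-06 by edgeR) and Casp1 with 2.12 (adjusted p = 0.000246), which are the inflammatory caspases that process interleukin-1 family cytokines and gasdermin D. Casp2, an initiator responsive to DNA damage, rose by 0.74 (adjusted p = 0.0402 by edgeR). The call for Casp2 was lost in 10 of the 14 fits without 1 rat, and held in those without TBI day 1 replicates 3 or 4 or sham day 14 replicates 1 or 3. It was also lost in 5 of the 10 other settings, among them limma-voom and the choroid plexus covariate. At day 14, 2 of the 9 rose, or 22.2% beside 4.07% of all tested genes called higher. Casp4 rose by 1.59 (adjusted p = 0.000202 by edgeR) and Casp1 by 0.88 (adjusted p = 0.0371), the latter call being lost in 7 of the 14 fits without 1 rat. These 7 fits were those without any 1 of the 4 sham day 14 rats or of TBI day 14 replicates 1, 2 and 4. The Casp1 call at day 14 was also lost in 4 of the 9 other settings, among them limma-voom, the replicate block and the choroid plexus covariate.

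Of the death receptors and caspase-8 adaptors, 6 of 14 tested genes rose at day 1 and none fell, with a median of 0.47. This was 42.9% of the list, beside 11.2% of all tested genes called higher. Ripk3, the kinase of necroptosis that caspase-8 cuts, rose by 3.81 (adjusted p = 7.14e-06 by edgeR), the receptor gene Fas by 2.54 (adjusted p = 0.00717), the TNF receptor gene Tnfrsf1a by 2.27 (adjusted p = 5.45e-05) and the TRAIL receptor gene Tnfrsf10b by 1.48 (adjusted p = 0.0237). The calls for Fas and Tnfrsf10b were lost without sham day 1 replicate 2, where they were 1.74 and 1.08, and Fas was 4.35 without replicate 1. Both calls were also lost in a fit of only the 6 rats of day 1. At day 14, 2 of the 14 rose, or 14.3% beside 4.07% of all tested genes called higher. These were Ripk3 with 1.72 (adjusted p = 0.000363 by edgeR) and Tnfrsf1a with 1.34 (adjusted p = 0.000685). The adaptor gene Fadd, through which Fas recruits caspase-8, had log2 fold changes of 0.11 (adjusted p = 0.850) and 0.58 (adjusted p = 0.444), and was named after its values were seen.

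Of the inhibitor of apoptosis genes, 3 of 5 tested rose at day 1, or 60% beside 11.2% of all tested genes called higher. At day 14, 1 of 5 rose, or 20% beside 4.07%. Birc3, whose protein ubiquitinates RIPK1, rose by 2.76 (adjusted p = 0.000585 by edgeR) and again at day 14 by 1.37 (adjusted p = 0.0259). The day 14 call was lost with limma-voom, and without sham day 14 replicates 1, 2 or 3 or TBI day 14 replicate 1. Birc5, which encodes survivin and is expressed in dividing cells, rose by 1.63 at day 1 (adjusted p = 0.0167 by edgeR) and Birc2 by 0.64 (adjusted p = 0.0219). Both of these calls were lost without sham day 1 replicate 2, and that for Birc2 also without replicate 1. A fit of only the 6 rats of day 1 lost both as well. The Birc5 call was also lost with limma-voom, and the Birc2 call without the 3 rats with the highest choroid plexus score. Xiap, the direct inhibitor of caspase-9, was named after its values were seen and had -0.53 (adjusted p = 0.230 by edgeR). None of the 6 apoptosome and mitochondrial death factors was called at either day by edgeR, limma-voom or DESeq2. By edgeR, 19.1% of all tested genes were called at day 1 and 4.43% at day 14. With unadjusted p-values under 0.05 they numbered 2 at day 1 (1 higher and 1 lower) and none at day 14. Over the 12875 tested genes, these numbers were 4429 and 1713. The median of the 6 was 0.21 at day 1.

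Of 6 caspase substrates of nuclear breakdown, 2 rose at day 1 and none fell, or 33.3% beside 11.2% of all tested genes called higher. These were the lamin genes Lmna, with 1.09 (adjusted p = 0.000229 by edgeR), and Lmnb1, with 0.98 (adjusted p = 0.00711). At day 14 none of the 6 was called by any of the 3 tools or had an unadjusted p-value under 0.05. By edgeR, 4.43% of all tested genes were called at day 14, and 1713 of 12875 had such an unadjusted p-value. The call for Lmnb1 was lost without sham day 1 replicate 2. It was also lost in a fit of only the 6 rats of day 1 and without the 3 rats with the highest choroid plexus score. All 12 calpain substrates had a log2 fold change below 0 at day 1, with a median of -0.68, and 2 of the 12 fell, or 16.7% beside 19.1% of all tested genes. These were Mapt, which encodes tau, with -0.69 (adjusted p = 0.00239 by edgeR), and Sptbn1, a beta spectrin, with -0.52 (adjusted p = 0.0375).

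The call for Mapt was lost without sham day 1 replicate 2 (-0.50). That for Sptbn1 was lost without sham day 1 replicate 2, without TBI day 1 replicates 2 or 3 and without sham day 14 replicates 1, 2 or 4. The Sptbn1 call was also lost with at least 10 counts in every sample and with the replicate block. A fit of only the 6 rats of day 1 lost the calls for both Mapt and Sptbn1. Of the 12 substrates, 9 had an unadjusted p-value under 0.05 at day 1, as did 4429 of the 12875 tested genes. DESeq2 called 7 of the 12, and its count over all genes is not given here. Most of these genes are expressed chiefly by neurons, whose markers were lower in the same rats, and the part of neuron content in this list was not tested. At day 14 none of the 12 was called by edgeR, limma-voom or DESeq2, where edgeR called 4.43% of all tested genes, and the median was -0.15. An unadjusted p-value under 0.05 was found for 3 of them and for 1713 of the 12875 tested genes.

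**Figure D5:**
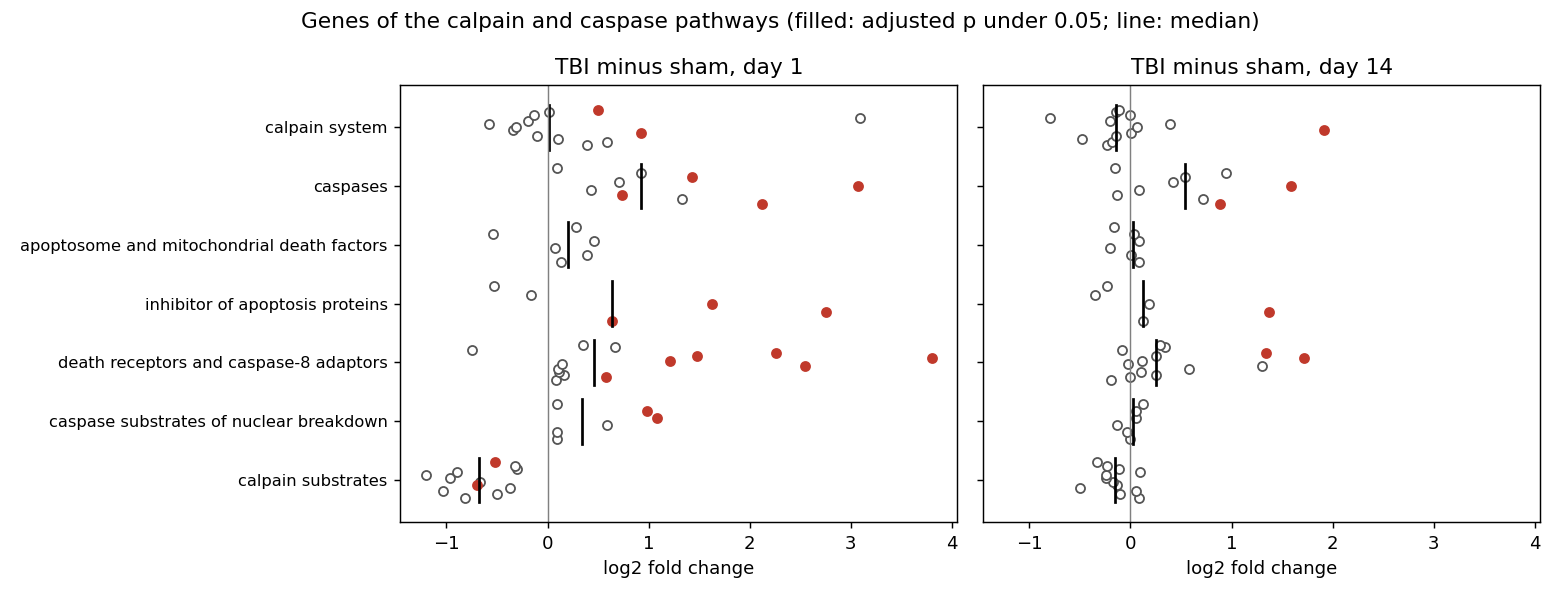
Log2 fold change (x axis) for TBI against sham at day 1 and day 14 of each tested gene in the 7 lists (y axis), with the median of each list as a vertical line and filled points for an adjusted p-value under 0.05. At day 1 the caspase list has its median at 0.92 and the calpain substrates theirs at -0.68, and at day 14 the medians are 0.54 and -0.15.

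The tested genes whose profile over the 14 rats was most like that of each called member were found by the root mean square difference between log2 CPM values centered on their mean, a description with no test. For Capn2, whose own profile had a root mean square deviation of 0.47, the nearest genes were Twf1, which encodes the actin monomer-binding protein twinfilin 1, at 0.098, Lactb at 0.14 and Impdh2, of guanine nucleotide synthesis, at 0.14. Their log2 fold changes at day 1 were 0.79, 0.72 and 0.74. For Cast, with a root mean square deviation of 0.26, they were the translation initiation factor gene Eif5 at 0.10, Ugdh at 0.11 and the RNA methyltransferase gene Nsun2 at 0.11.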

How the data were processed

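Polyadenylated RNA from 14 rats was sequenced as single-end reads with a stranded kit. The authors used STAR 2.4.2a for alignment to rn5 and featureCounts 1.5.0 for counting over UCSC gene models, and the deposited counts are whole numbers without normalization, 1 column per rat. The strand setting of the counting is not given in the sources used here. Samples were grouped by their labels. Counts were analyzed in R 4.3.3 with edgeR 4.0.16, which estimated TMM factors, dropped genes with low counts by its default rule, modelled all 14 rats with a mean for each of the 4 groups and gave two-sided quasi-likelihood tests, with Benjamini-Hochberg adjustment over 12875 genes. The study itself used limma-voom, which was an alternative here (limma 3.58.1), as was DESeq2 1.42.0. Log2 CPM used a prior count of 2. No pair of replicates agreed within sampling noise, as chi-squared divided by its degrees of freedom was 12.6 or more for each pair.

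The 7 genes, the lists and the tests were chosen with earlier results of these data known. Named genes were the 7 members, up to 4 called genes per list and day with the largest change, and the 3 genes nearest to each called member. One gene that this rule names is not reported here. The lists were the calpain system, caspases, apoptosome and mitochondrial death factors, inhibitors of apoptosis, death receptors and caspase-8 adaptors, and substrates of caspases and of calpains. Markers were those of choroid plexus, microglia and macrophages, infiltrating myeloid cells, astrocytes, neurons, oligodendrocytes and endothelial cells. The choroid plexus score is the mean log2 CPM of its markers. In a simulation of day 1 with 12669 genes tested, edgeR recovered 99 of 100 genes changed by 1.5 on the log2 scale and 100 of 100 changed by 3, with 11 calls among unchanged genes. The simulation gave every gene the same spread between rats, and its libraries differed only in depth. Its changes were larger than that of any member at day 1, at most 0.92. Its recovery and error rate therefore do not carry over to the results above. Plots were drawn with matplotlib 3.10.9 in Python 3.11.15. H3K4me3 peak lists were not used here because they carry rn5 positions without gene names.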

Additional observations from a re-analysis of the deposited data

Results flagged for a closer look

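Casp8 in TBI day 1 replicate 4, at 2.85 log2 CPM, stood away from the other 3 rats of its group, with a gap to the nearest that was 0.851 of the range of the group. About 1 in 20 groups of 4 would be marked this way by chance. Without that rat the log2 fold change of Casp8 at day 1 was 0.75 (adjusted p = 0.187 by edgeR).

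The injury effect differed between the days for Capn2, by 0.92 on the log2 scale (adjusted p = 0.00712 by edgeR), and for Cast, by 0.61 (adjusted p = 0.0393). For both genes the day 1 effect was the larger. All 4 TBI day 1 rats lay above the other 10 rats for both genes, an order that was not counted over all tested genes. TBI day 1 did not overlap with sham day 1 for 30.8% of all tested genes, or with sham day 14 for 39.9%.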

How the results depend on the processing

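Capn2 at day 1 was called in all 24 other settings, with log2 fold changes of 0.82 to 1.02. Members called at day 1 numbered 1 with only the groups compared and 4 with all 6 sham rats as 1 baseline, where pathway genes called numbered 9 and 36. Leaving out 1 rat at a time gave 1 to 3 members and 10 to 27 pathway genes at day 1, 0 to 1 members and 4 to 8 pathway genes at day 14, 0 to 1 members between the sham groups, and 3 to 5 in TBI day 1 against sham day 14. At day 14, 1 member was called with only the groups compared. Members whose effect differed between days numbered 1 to 2 without 1 rat, 1 with no filter, with limma-voom, with the replicate block and at an adjusted p-value under 0.01, and 0 with the choroid plexus covariate. Without the 3 rats with the highest choroid plexus score, added after seeing the data, they numbered 0, and 1 member was called between the sham groups. Of the fits without 1 rat, that without sham day 1 replicate 2 gave the lowest day 1 counts, 1 member and 10 pathway genes. The cause was not tested. For the settings in this paragraph, the number of all genes called in the same fit is not given. A change particular to these genes cannot be read from the counts.

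Signs turned only in comparisons where the member was not called. Capns1 at day 1 ranged from -0.42 to 0.23 without 1 rat and was 0.22 without those 3 rats. Casp9 at day 1 ranged from -0.23 to 0.52 without 1 rat and was -0.19 with all sham rats as baseline. At day 14 Capn2 ranged from -0.029 to 0.066 and Capns1 from -0.091 to 0.068 without 1 rat, and Capns1 was 0.012 with at least 10 counts in every sample, 0.028 with only the groups compared and 0.051 without those 3 rats. The difference between days was 0.080 for Capns1 with the choroid plexus covariate and 0.17 without those 3 rats, and -0.42 to 0.24 without 1 rat. For Casp8 it was 0.18 with limma-voom, 0.16 with the replicate block, 0.47 with the covariate, 0.83 without those 3 rats and -0.63 to 0.99 without 1 rat, and for Casp9 -0.084 to 0.67 without 1 rat.

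Same-numbered replicates of different groups correlated at -0.35 to 0.24 over 18 pairs (median 0.034). Those with different numbers correlated at -0.43 to 0.35 over 54 pairs (median -0.033). Values were centered within each group, which makes the 2 sham day 1 rats mirror images, so these correlations cannot exclude a pairing. The labels give only a replicate number. The block gave 2 members at day 1 and 0 at day 14, and the difference of Cast between days was not called with it (0.58, adjusted p = 0.061). The number of all genes called with the block is not given, so a change particular to these genes cannot be read from those counts. The day 1 comparison had 2 sham rats, and Casp8 had 28 to 160 reads per library. Its 95% interval at day 1, from 0.073 to 1.77, was wider than that of Capn2, from 0.66 to 1.19.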
